A study of Rattus norvegicus and Mus musculus with 39 samples.

Results

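The response of the peripubertal testis to mono(2-ethylhexyl) phthalate (MEHP) was compared between rats and mice, gene by gene. The species difference of a gene was its log2 fold change of MEHP over corn oil in peripubertal rats minus that in peripubertal mice, so a positive value means a higher MEHP effect in rats. Genes were paired when the rat and the mouse table gave the same gene name, ignoring case, and when the base mean (the normalized count averaged over all libraries of a species) was at least 10 in both. This gave 10346 paired genes, of 21654 genes in the rat tables and 38090 in the mouse table. Close to the limit, Qpct was inside with a rat base mean of 10.01 and a difference of 0.23 ± 0.28, and Acot4 was outside with 9.99 and 0.11 ± 0.31.

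Transcript tags of whole testis were sequenced (Tag-seq), from total RNA, in 39 libraries of which 27 enter the comparison. The animals received 700 mg/kg MEHP by oral gavage, mixed into corn oil, or corn oil alone, and the labels give day 2 as the time. Peripubertal rats gave 7 corn oil and 7 MEHP libraries, and peripubertal mice gave 7 corn oil and 6 MEHP libraries. The rat fit of the authors also held 7 corn oil and 5 MEHP libraries of adult rats. Strain, genotype and age in days were not found in the labels. Nothing there ties a library to an animal of its own, so p-values describe only how far libraries spread, which may be technical. Values per library were not analysed here and the depth of each library is unknown. Whether libraries of a group overlapped therefore cannot be said, and the standard error (SE) carries the replicate spread.

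MEHP is the active metabolite of di(2-ethylhexyl) phthalate, a plasticizer. Its known target in the testis is the Sertoli cell, the somatic cell of the seminiferous tubule that surrounds and feeds the germ cells and joins its neighbours in the blood-testis barrier. In rats that enter puberty, phthalate exposure is known to disturb the Sertoli cytoskeleton and to be followed by detachment and death of germ cells, and mice are known as the less sensitive species. The comparison asks which genes respond differently in the 2 species. In bulk tissue, fewer cells of a type and less RNA per cell cannot be told apart.

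The MEHP effect differed between the species in 198 of the 10346 paired genes (1.91%). It was higher in rats in 126 genes (1.22%) and lower in 72 (0.696%). The largest positive differences were in Serpinb1a, Pam and Wnt4, and the largest negative difference was in Tnp2. The median difference was 0.65 among the 126 and -0.32 among the 72, and 30 of the former but 1 of the latter, Tnp2, had a size of at least 1. The test was a two-sided Wald test on the difference with Benjamini-Hochberg (BH) adjustment over all paired genes, called at an adjusted p under 0.05, and 1484 genes had an unadjusted p under 0.05. Under a t distribution the counts were 18 higher and 3 lower. Of the 51 called genes that the text names by rule, 15 kept their call there: Pam, Ctsl, Serpinb1a, Gstm2, Stap2, Gask1b, Cpt1a, Anxa2, Cd74, Itih2, Bcl3, Tuba1c, Tnp2, Snrnp35 and Aqp9.

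Most of the called differences lay in genes that also passed the test within rats. Within rats, 834 paired genes were called (8.06%), 487 higher (4.71%) and 347 lower (3.35%). Within mice, 0 paired genes were called, both in the authors' deposited table and with BH over the paired genes, where the smallest adjusted p was 0.302. An unadjusted p under 0.05 was reached in mice by 384 paired genes (3.71%), 165 higher (1.59%) and 219 lower (2.12%). Without any effect, the threshold alone would give a share near 0.05. Of the 126 genes with a higher effect in rats, 116 were called higher within rats, and of the 72 with a lower effect 65 were called lower. The difference contains the rat effect, so calling on it favours this overlap and the size of the medians that follow. The median rat effect of the 126 genes was 0.52 and their median mouse effect -0.12, and those of the 72 genes were -0.23 and 0.09. The mouse effect was under 0.1 in size in 50 of the 126 and in 41 of the 72. It had the opposite sign in 104 of the 126 and in 71 of the 72, a share that calling on the difference itself favours.

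**Figure D1:**
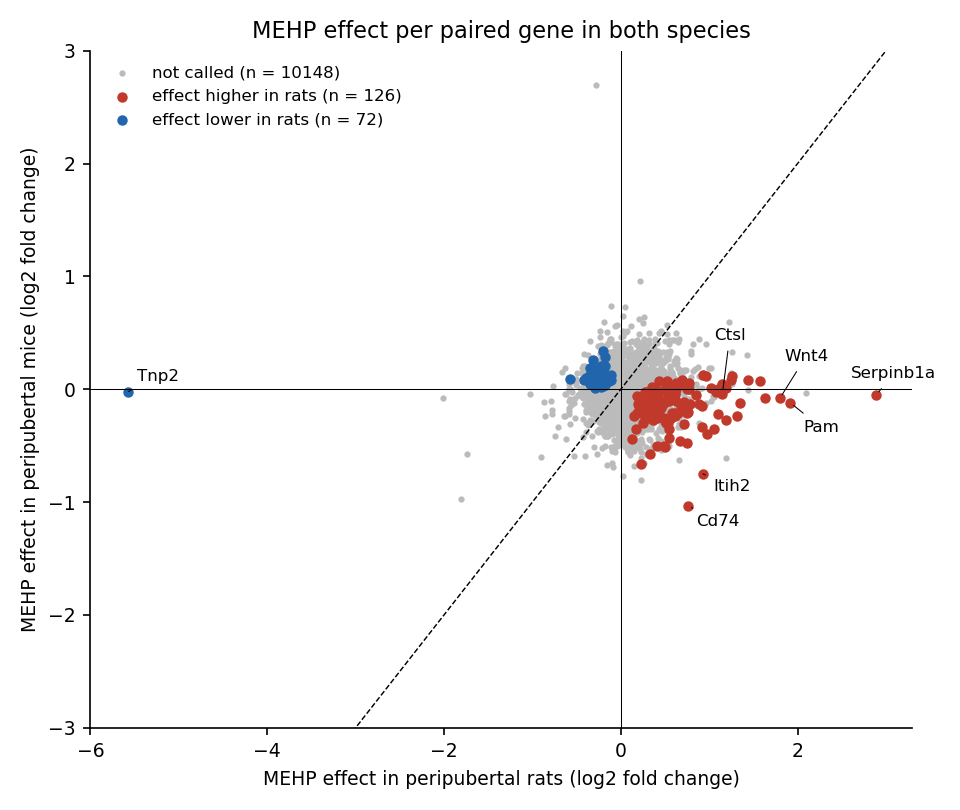
MEHP effect (log2 fold change over corn oil) of each of 10346 paired genes in peripubertal rats on the x axis and in peripubertal mice on the y axis, with the line of equal effects dashed. The 126 genes with a higher effect in rats (red) and the 72 with a lower effect (blue) spread along the rat axis, while their mouse effects lie between -1.03 and 0.34.

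The genes called in rats were also read across to mice, whichever way their difference fell. Of the 834, 351 had the same sign in mice (42.1%), beside 45.6% of all paired genes. The 487 genes called higher in rats had a median effect of 0.39 in rats and -0.01 in mice, and the 347 called lower had -0.21 and 0.02. The 95% interval of the mouse effect excluded the rat estimate in 419 of the 487 (86.0%) and in 278 of the 347 (80.1%), which leaves the error of the rat estimate aside. In 227 and 165 of them the whole mouse interval lay short of 50% of the rat effect. These genes were called on the same rat estimates, which favours large rat medians and a large distance from mice in these counts. A called difference was found in 181 of the 834 (21.7%), so for 653 genes the rat change passed the test but its difference from mice did not. The median SE was 0.09 in rats and 0.1 in mice, and 0.14 for the difference.  Across the paired genes the effects of the 2 species had a Pearson r of -0.04 and a Spearman rho of -0.1, with genes not independent of each other.

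Pam, which encodes the enzyme that amidates the ends of peptide hormones, had the largest test statistic. Its implied level, which is derived from base mean and model coefficients and has its own scale in each species, was 130 in rats on corn oil and 493 in rats on MEHP, and 101 and 93 in the mice. The rat effect was 1.92 ± 0.19 (SE) and the difference 2.04 ± 0.22 (adjusted p 8.86e-16). The mouse effect of Pam in the authors' deposited table was -0.12 ± 0.12. On mm10 mouse Pam, a protein-coding gene, spans positions 97795114 to 98095646 of chromosome 1, minus strand.

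Serpinb1a, an inhibitor of neutrophil proteases inside cells, had the largest positive difference. Its implied level was 8.58 and 63.7 in the rats on corn oil and MEHP, and 45 and 43.3 in the mice. The rat effect was 2.89 ± 0.42 and the difference 2.95 ± 0.45 (95% interval 2.06 to 3.84, adjusted p 2.62e-07). In the authors' deposited table the mouse effect of Serpinb1a was -0.05 ± 0.17. Mouse Serpinb1a, also protein coding, spans positions 32842092 to 32851185 of chromosome 13, minus strand.

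Ctsl encodes cathepsin L, a protease that Sertoli cells secrete. Its implied level was 507 and 1123 in the rats on corn oil and MEHP, and 2099 and 2039 in the mice. The rat effect was 1.15 ± 0.14 and the difference 1.19 ± 0.15 (95% interval 0.89 to 1.49, adjusted p 4.47e-11). The mouse effect of Ctsl in the authors' deposited table was -0.04 ± 0.07. With a null hypothesis of a difference of at most 0.5 in size, Pam, Serpinb1a, Ctsl and Tnp2 were the 4 genes still called.

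The rat promoters of 4 of these genes are shown because their effects stood well above those in mice: Pam and Ctsl for the largest statistics, and Anxa2 and Itih2 for the largest statistics among genes with an AP-1 match. Each runs from 250 bases before to 50 bases after the gene's start, 5′ to 3′ on the gene's strand, from RefSeq on GRCr8, which is not the build of the rat tables. Capitals mark matches to the motifs searched on both strands, which were TGANTCA (AP-1), TGACNNNGC (part of the NRF2 site), TTCNNNGAA (STAT), CACGTG (E-box), the NF-kB site and the PPAR direct repeat.
Pam (chr9:105570118-105570417, plus strand): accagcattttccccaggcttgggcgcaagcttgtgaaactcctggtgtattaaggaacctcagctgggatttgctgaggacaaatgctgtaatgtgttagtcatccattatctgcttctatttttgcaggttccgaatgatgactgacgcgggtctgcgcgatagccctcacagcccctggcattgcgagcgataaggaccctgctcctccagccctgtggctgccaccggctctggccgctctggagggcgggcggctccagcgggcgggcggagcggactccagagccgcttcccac
Ctsl (chr17:769854-770153, plus strand): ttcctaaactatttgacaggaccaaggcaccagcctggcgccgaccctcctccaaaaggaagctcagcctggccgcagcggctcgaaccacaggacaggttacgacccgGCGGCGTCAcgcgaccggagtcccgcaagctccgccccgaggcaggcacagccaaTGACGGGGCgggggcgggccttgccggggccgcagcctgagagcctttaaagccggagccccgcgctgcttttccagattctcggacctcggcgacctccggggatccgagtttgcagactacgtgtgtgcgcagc
Anxa2 (chr8:78986002-78986301, plus strand): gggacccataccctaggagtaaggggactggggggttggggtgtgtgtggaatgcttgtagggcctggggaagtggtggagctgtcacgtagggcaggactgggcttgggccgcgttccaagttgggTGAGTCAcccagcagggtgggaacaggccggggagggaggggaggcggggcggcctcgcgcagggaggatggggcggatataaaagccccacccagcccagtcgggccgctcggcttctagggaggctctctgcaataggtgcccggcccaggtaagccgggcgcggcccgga
Itih2 (chr17:73285031-73285330, plus strand): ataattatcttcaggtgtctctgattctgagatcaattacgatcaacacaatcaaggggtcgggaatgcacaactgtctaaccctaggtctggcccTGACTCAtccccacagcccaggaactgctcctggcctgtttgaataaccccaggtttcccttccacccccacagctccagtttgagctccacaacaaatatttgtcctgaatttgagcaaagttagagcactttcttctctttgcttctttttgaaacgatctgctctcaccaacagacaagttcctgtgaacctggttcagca
The AP-1 matches begin 123 bases before the start in Anxa2 and 154 bases before it in Itih2, and the NRF2 matches in Ctsl begin 141 and 86 bases before it. Promoters were found for 8512 of the paired genes, 101 of the 126 and 59 of the 72. The AP-1 letters occurred in 11 of the 101 (10.9%), in 2 of the 59 (3.39%), in 4.39% of the paired genes and in 7.33% of 27457 rat promoters. The NRF2 letters were in 16 of the 101 (15.8%) and in 14.7% of the paired genes, and the E-box was in 4 of the 101 (3.96%), 7 of the 59 (11.9%) and 9.95% of the paired genes. STAT letters were in 2.97% of the 101 and 6.59% of the paired genes. The NF-kB letters were found in 1 of the 101, and the direct repeat in 0 of them and in 16 of all 27457 promoters. These are matches of letters and were not tested.

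Wnt4, a secreted signalling ligand, and Cd74, the chain that escorts class II histocompatibility proteins, followed in size. Wnt4 stood at implied levels of 51.8 and 180 in the rats on corn oil and MEHP and at 19.7 and 18.6 in the mice, with a rat effect of 1.80 ± 0.37 and a difference of 1.88 ± 0.44 (adjusted p 0.0052). Cd74 stood at 239 and 405 in the rats and at 29.3 and 14.3 in the mice. The Cd74 rat effect was 0.76 ± 0.25 and the difference 1.80 ± 0.37 (adjusted p 0.000885). The mouse effect of Cd74 in the authors' deposited table was -1.03 ± 0.27, with an unadjusted p of 0.000138 that did not pass adjustment (0.419 over the paired genes). Itih2, which encodes a hyaluronan-binding plasma protein, had a rat effect of 0.93 ± 0.29 and a difference of 1.68 ± 0.35 (adjusted p 0.00117). The mouse effect of Itih2 in the authors' deposited table was -0.75 ± 0.20, also past an unadjusted 0.05 alone. The 2 genes thus combine a higher value in rats with a lower estimate in mice, where Pam and Serpinb1a have mouse estimates near 0.

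The other large positive differences were in genes of varied roles. The NF-kB cofactor gene Bcl3 had a difference of 1.56 ± 0.33 and the adaptor gene Stap2 one of 1.47 ± 0.28, with a rat level of 6.22 on corn oil and 15.9 on MEHP. Gbp4, an interferon-induced GTPase gene, was at 1.46 ± 0.42, and the Golgi-associated gene Gask1b had a rat effect of 1.57 ± 0.28 (adjusted p of the difference 0.000727). The extracellular protease gene Htra1 (1.40 ± 0.35), the protease inhibitor gene A2m (1.39 ± 0.35), the actin-binding gene Tagln2 (1.36 ± 0.33) and the lysozyme gene Lyz2 (1.32 ± 0.32) completed the 14 largest with Nes. Each of these had been called within rats, and their mouse effects in the authors' deposited table ranged from -0.40 in A2m to 0.08 in Tagln2. Several of the largest differences rest on low implied levels in rats on corn oil, which were 6.22 in Stap2, 8.11 in Itih2, 8.32 in Gbp4, 8.58 in Serpinb1a, 9.11 in Gask1b and 12.4 in Bcl3. In mice on corn oil Nes and A2m were at 13.5 and 13.7.

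**Figure D2:**
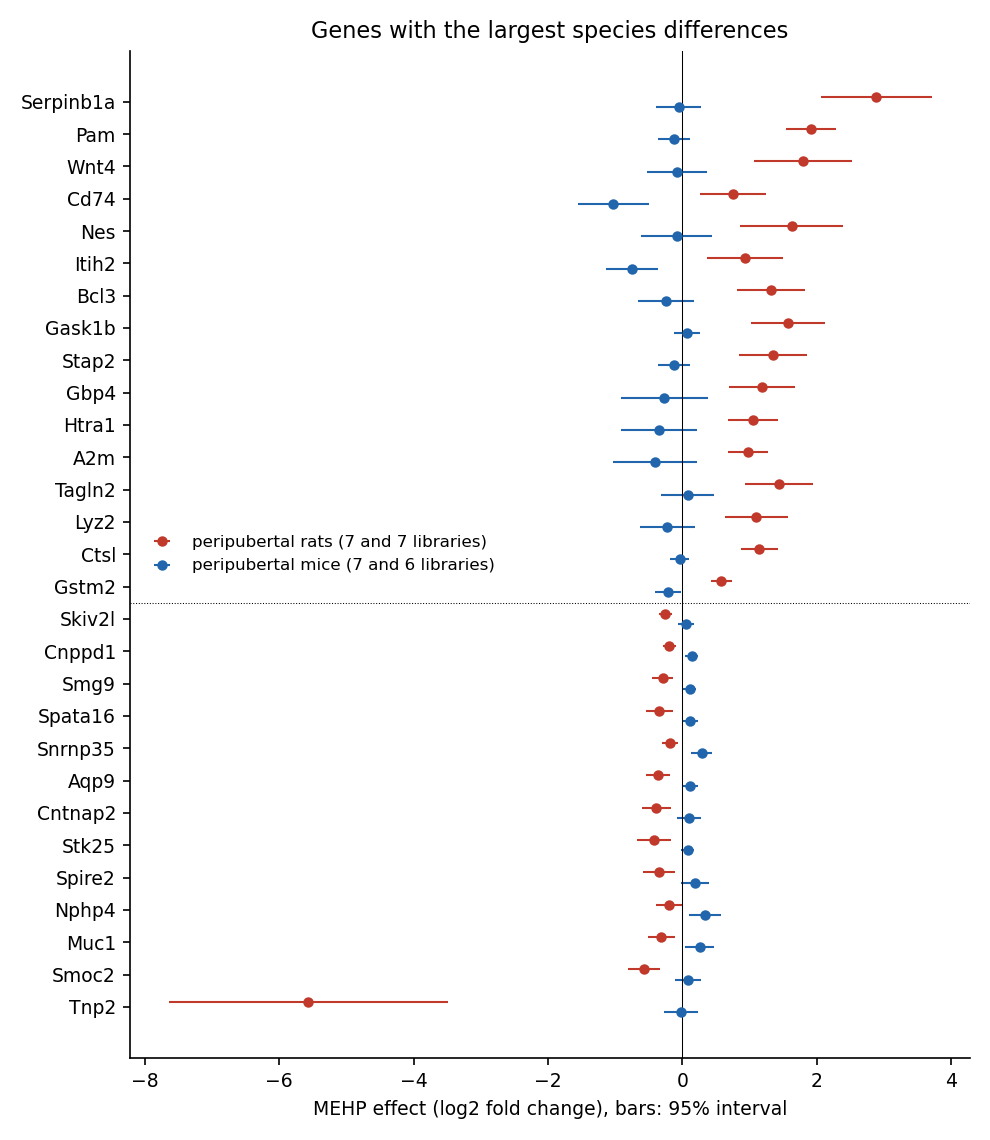
MEHP effect (log2 fold change, x axis) of the named genes with the largest differences or statistics in peripubertal rats (red) and peripubertal mice (blue), with bars for the 95% interval. Above the dotted line the rat effects lie to the right of 0, from 0.58 in Gstm2 to 2.89 in Serpinb1a, and below it to the left, with Tnp2 at -5.57.

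**Figure D3:**
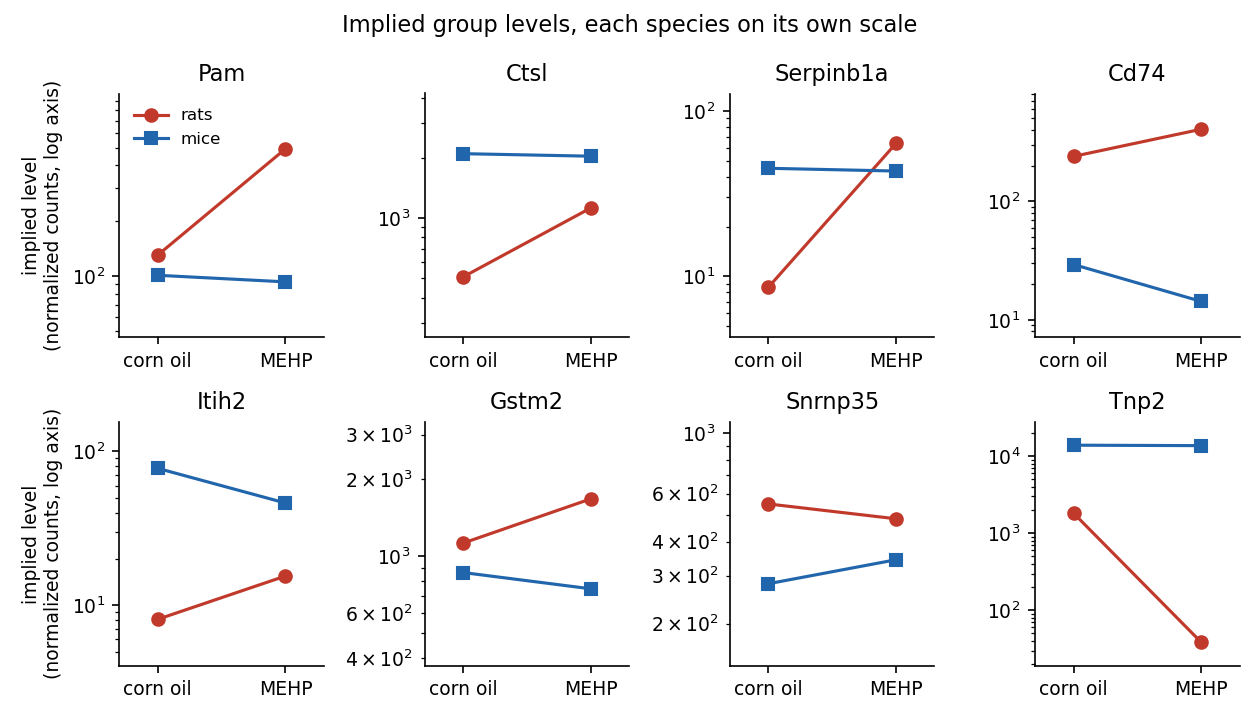
Implied group levels (normalized counts, log axis) of 8 genes on corn oil and MEHP, in rats (red) and mice (blue), each species on its own scale. Serpinb1a goes from 8.58 to 63.7 in rats and from 45 to 43.3 in mice, and Tnp2 from 1819 to 38.2 in rats and from 13907 to 13723 in mice.

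Sertoli cell markers and junction genes had called differences in 1 direction. Of 15 paired Sertoli cell markers 4 had a higher effect in rats and 0 a lower one, beside 1.22% and 0.696% of all paired genes. The list's median difference was 0.18, against 0.01 over all paired genes. Besides Ctsl these were the tight junction gene Cldn11 (0.34 ± 0.10, adjusted p 0.031), the hedgehog ligand gene Dhh (0.52 ± 0.15, adjusted p 0.039) and the intermediate filament gene Nes (1.71 ± 0.48, adjusted p 0.0318). The lists were chosen with earlier results of these data known, and Nes is a gene that an earlier account names. The Cldn11 level was 1271 and 1551 in the rats on corn oil and MEHP and 856 and 824 in the mice. Defining Sertoli markers were not called: Sox9 had a difference of 0.19 (adjusted p 0.544), Wt1 0.18 (0.486), Gata4 0.17 (0.617) and Amh -0.41 (0.611). The summed implied level of the 15 markers was 0.20 higher (log2) with MEHP in rats and 0.03 lower in mice.

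Of 20 junction genes 5 had a higher effect in rats and 0 a lower one (all paired genes 1.22% and 0.696%), with a median difference of 0.25. They included Cldn11, the integrin gene Itgb1 (0.49 ± 0.14, adjusted p 0.0395), the N-cadherin gene Cdh2 (0.48 ± 0.14, 0.0447) and the junctional adhesion gene F11r (0.50, 0.0466). The Itgb1 level was 367 and 481 in the rats on corn oil and MEHP and 213 and 198 in the mice. Members not called included Gja1, the gap junction gene of the barrier (0.05, adjusted p 0.884), Tjp1 (0.23, 0.329) and Espn (0.02, 0.945). Of the Sertoli and junction calls, Ctsl alone held with the t distribution.

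Cytoskeleton genes also had 5 called members of 22, all higher in rats (1.22% of all paired genes), and the list's median difference was 0.41. The alpha-tubulin genes Tuba1c and Tuba1b had differences of 0.91 ± 0.20 (adjusted p 0.00341) and 0.61 ± 0.14 (0.00629). The beta-tubulin gene Tubb6 was at 1.02 (0.0465), and Nes was called here too. Anxa2, whose protein binds membranes and actin, had a difference of 0.81 ± 0.17 (adjusted p 0.000727), with levels of 321 and 475 in the rats and 472 and 397 in the mice. The mouse effect of Anxa2 in the authors' deposited table was -0.25 ± 0.07, with an unadjusted p of 0.000284 (adjusted p 0.419 over the paired genes). Vim (0.44, adjusted p 0.0825), S100a10 (0.82, 0.0735) and Actb (0.22, 0.0985) were not called. Tuba1b and Tuba1c are near-identical, so tag counting could have split their reads.

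Actin-related genes outside the list were among the called members as well, chosen here after their values were seen. Gsn, which severs actin filaments, had a difference of 0.63 ± 0.16 and Dstn, which takes filaments apart, 0.47 ± 0.11. The calponin gene Cnn2 (0.90 ± 0.23) and Csrp1 (0.89 ± 0.23) were not called within rats (0.33 ± 0.15 and 0.23 ± 0.15). Their mouse effects in the authors' deposited table were -0.57 ± 0.17 and -0.66 ± 0.18.

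Markers of other somatic cells had positive median differences but few called members, beside 1.22% higher and 0.696% lower of all paired genes. The monocyte and macrophage list had the highest median of the lists, 0.49 over 16 paired members, and 1 call, Lyz2 (adjusted p 0.00695), with levels of 87 and 187 in the rats and 146 and 126 in the mice. Of the 16 members 15 had a positive difference. The pan-leukocyte gene Ptprc was at 0.03 (adjusted p 0.98), Adgre1, the lowest member, at -0.04 (0.972) and Cd68 at 0.51 (0.55). The summed level of the list was 0.34 higher (log2) with MEHP in rats and 0.07 lower in mice. None of the neutrophil markers reached the base mean limit in both species, and 2 lymphocyte markers and 1 erythroid marker did, with 0 calls. No marker gene of these lists that was present in a table had a base mean of 0. The part of these cells in the differences above was not tested.

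The fibroblast and matrix list had 20 paired genes and 2 higher calls (1.22% of all paired genes), Sparc (0.57 ± 0.14, adjusted p 0.0058), a collagen-binding glycoprotein, and Ecm1 (1.23 ± 0.32, 0.0157). The list had a median difference of 0.44 and 18 positive members, and the collagens Col1a1 (0.25, adjusted p 0.879) and Col3a1 (0.47, 0.675) were among those not called. Levels of Sparc were 3169 and 4639 in the rats and 5062 and 4975 in the mice. The myoid list had 1 call each way among 11 (all paired genes 1.22% and 0.696%), Mylk (0.55 ± 0.14, adjusted p 0.00901) and Smoc2 (-0.66 ± 0.16, 0.00695). Mylk, the kinase of smooth muscle contraction, was not called in rats (0.25 ± 0.11), and in the authors' deposited table its mouse effect was -0.30 ± 0.09 (unadjusted p 0.000495).

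Of 17 Leydig cell and steroidogenesis genes, 1 was called (1.91% of all paired genes), Tspo, a mitochondrial outer membrane protein of steroid-forming cells. Its difference was 0.82 ± 0.19 (adjusted p 0.00478) and its levels 148 and 225 in the rats and 83.3 and 72.1 in the mice. The steroid pathway genes themselves had wide errors. Star, the cholesterol carrier, differed by 0.30 (adjusted p 0.728), Cyp17a1 by 0.80 (0.457) and Cyp11a1 by 0.26 (0.854). Mouse effects in the authors' deposited table were -0.57 ± 0.22 for Star, -0.77 ± 0.35 for Cyp17a1 and -0.46 ± 0.20 for Lhcgr, with unadjusted p under 0.05 and no call after adjustment. The summed level of the 17 genes was 0.01 lower (log2) in rats and 0.35 lower in mice.

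**Figure D4:**
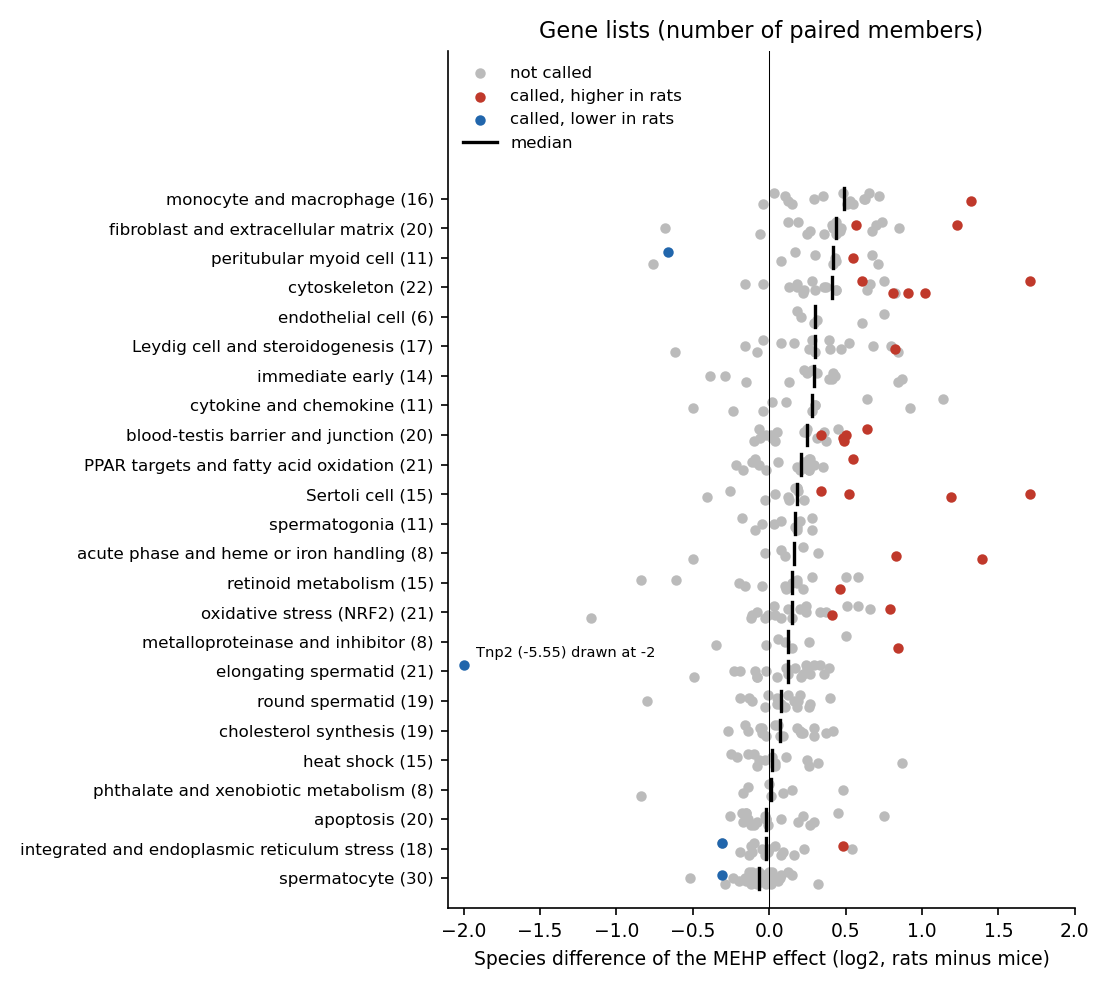
Species difference of the MEHP effect (log2, rats minus mice, x axis) of each paired member of the gene lists with at least 5 members, with called members in colour and the list's median as a black bar. The medians run from -0.07 in the spermatocyte list to 0.49 in the monocyte and macrophage list, and Tnp2, at -5.55, is drawn at the left edge.

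The glutathione transferase genes Gstm2 and Gsta4 had a higher effect in rats. Gstm2 had a difference of 0.79 ± 0.13 (95% interval 0.54 to 1.04, adjusted p 1.55e-06), with levels of 1126 and 1679 in the rats and 864 and 746 in the mice. Gsta4 differed by 0.41 ± 0.11 (adjusted p 0.0228). They were the 2 called members, both higher, of 21 in the NRF2 list, beside 1.22% of all paired genes, and the list's median was 0.15. Of these 21 genes, 6 had a lower mouse value in the authors' deposited table with an unadjusted p under 0.05, among them Gstm2 (-0.21 ± 0.10) and Gsta3 (-0.57 ± 0.18), whose implied rat corn-oil level was 0.574. Of all paired genes, 2.12% had such a value, and none of the 6 passed adjustment. The classic NRF2 targets Hmox1 (0.08, adjusted p 0.937) and Gclm (-0.08, 0.757) were not called. Gstm and Gsta genes form families of near-identical copies, and the counting could split reads between them.

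Of 21 PPAR targets and fatty acid oxidation genes, 1 was called, Cpt1a, which passes fatty acids into mitochondria. Its difference was 0.55 ± 0.11 (adjusted p 0.000727), with levels of 191 and 258 in the rats and 382 and 353 in the mice. Other PPAR targets were not called, such as Angptl4 (0.06, adjusted p 0.95) and Plin2 (0.35, 0.109). Of 19 cholesterol synthesis genes 0 were called for the difference, with a list median of 0.07. Of 15 retinoid genes Aldh1a1, a retinal dehydrogenase gene, was called (0.46 ± 0.13, adjusted p 0.0398). The lists of heat shock, apoptosis, immediate early, endothelial, cytokine and xenobiotic genes had 0 calls. Beside 1.91% of all paired genes, 0 or 1 call in lists this short says little about these genes. The smallest adjusted p of the cytokine and immediate early lists was that of Csf1 (0.92, adjusted p 0.102) and Jund (0.31, 0.0889).

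Secreted and surface proteins were called in several more places, again picked after their values were seen. The amyloid precursor gene App differed by 0.54 ± 0.11, the heparan sulfate genes Sulf1 and Sdc4 by 0.82 ± 0.17 and 0.69 ± 0.15, and Apoe, a lipid carrier gene, by 0.90 ± 0.23. The peptide-processing enzyme gene Cpe, which acts in the same pathway as Pam, differed by 1.18 ± 0.29 with a rat effect of 1.19 ± 0.27. The complement inhibitor gene Serping1 had 0.87 ± 0.21, Plat, whose enzyme activates plasminogen, had 0.84 ± 0.25 and the ferroxidase gene Cp had 0.83 ± 0.22. Lysosomal genes other than Ctsl were called too, with Ctsb at 0.61 ± 0.17, Psap at 0.30 ± 0.09 and the ganglioside activator gene Gm2a at 0.65 ± 0.11 (adjusted p 1.01e-05).

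Among the 72 genes with a lower effect in rats, Tnp2 stood apart. It encodes transition protein 2, which packs the DNA of condensing spermatids. Its implied level was 1819 in rats on corn oil and 38.2 in rats on MEHP, and 13907 and 13723 in the mice. The rat effect was -5.57 ± 1.06 and the difference -5.55 ± 1.06 (95% interval -7.64 to -3.47, adjusted p 0.000304). Of 21 paired markers of elongating spermatids Tnp2 was the 1 called, beside 0.696% of all paired genes called lower. Tnp1 differed by 0.17 (adjusted p 0.878), Prm2 by -0.09 (0.889) and Odf1 by 0.24 (0.647). A fall could be missed in markers of low level and wide error. One was Cabs1, with an implied level of 8.87 in rats on corn oil and a difference of 0.22 ± 0.35. Among the 69 rat genes whose base mean reached 5000, the SE of Tnp2 was the largest, the next was 0.32 and the median 0.06. Without values per library, whether 1 or a few libraries set this value was not tested. In the authors' deposited table, all 21 elongating and 19 round spermatid markers were lower in corn-oil peripubertal than in adult rats, with medians of -5.44 and -2.81. Their summed implied levels on corn oil were 14255 and 6228 in peripubertal rats and 76942 and 18065 in the mice, each species on its own scale. For spermatocyte markers the sums were 38702 and 51867. How far sperm formation had advanced cannot be told apart from species here, and its part in the differences was not tested.

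The other 71 of these genes had small rat effects, from -0.57 to -0.11. Syce1, a synaptonemal complex gene, was the 1 call among 30 spermatocyte markers (-0.31 ± 0.08, adjusted p 0.0118), beside 0.696% of all paired genes called lower. The list had the lowest median, -0.07. Levels of Syce1 were 654 and 558 in the rats and 2499 and 2646 in the mice. Spata16, a gene of acrosome formation, differed by -0.46 ± 0.12 (adjusted p 0.0109) and the water and glycerol channel gene Aqp9 by -0.48 ± 0.11 (0.00317). The minor spliceosome gene Snrnp35 differed by -0.48 ± 0.10 (adjusted p 0.00147), with levels of 550 and 485 in the rats and 280 and 343 in the mice. Its mouse effect in the authors' deposited table was 0.29 ± 0.08 (unadjusted p 0.000277). The epithelial mucin gene Muc1 (-0.57 ± 0.15), the ciliary gene Nphp4 (-0.54 ± 0.16), the actin nucleator gene Spire2 (-0.53 ± 0.16), the kinase gene Stk25 (-0.50 ± 0.14) and the adhesion gene Cntnap2 (-0.49 ± 0.15) were the other large ones.

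Smg9, a gene of nonsense-mediated decay, differed by -0.40 ± 0.09 (adjusted p 0.00509) and Skiv2l, a helicase gene of exosome-linked decay, by -0.31 ± 0.07 (0.00514). Sdf2l1, an endoplasmic reticulum gene, was the 1 lower call among 18 stress genes (-0.31 ± 0.09, adjusted p 0.0428), and Psat1, a serine synthesis gene, was the 1 higher call (0.48 ± 0.13, 0.0213). Over all paired genes the shares were 0.696% lower and 1.22% higher. Chaperone genes chosen after their values were seen were Tcp1 (-0.29 ± 0.07) and Cct7 (-0.22 ± 0.07), which form the chaperonin ring, and the co-chaperones Dnajb2 (-0.32 ± 0.08) and Fkbp4 (-0.24 ± 0.06). Genes of cilia and sperm tails, chosen likewise, were Ift46 (-0.28 ± 0.08), Rsph1 (-0.35 ± 0.09), Ccdc113 (-0.31 ± 0.08) and Cfap298 (-0.39 ± 0.11). These were small effects in well-expressed genes, as the median base mean of the 72 was 754 in rats and 760 in mice against 177 and 154 over all paired genes.

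Some genes had estimates of the same sign in both species and no called difference, although none of them passed adjustment in mice. Fstl1, a secreted glycoprotein gene, was at 0.55 ± 0.13 in rats (adjusted p 0.00145), and at 0.40 ± 0.13 in mice in the authors' deposited table (unadjusted p 0.00281). Their difference was 0.15 ± 0.19. Insig1, a brake on cholesterol synthesis, was at -0.16 ± 0.05 in rats and -0.34 ± 0.10 in mice in the authors' deposited table, a difference of 0.18 ± 0.11. Ccdc88c, Rab7b, Crip1, Ckap4, Sptan1 and Dnaja3 were the others with the largest statistics of the same sign, and their differences lay between -0.02 and 0.22. Crip1, Ckap4, Sptan1 and Dnaja3 were not called within rats either (adjusted p 0.118, 0.0963, 0.122 and 0.118). The intervals for these genes leave room for a moderate difference, from -0.36 to 0.80 in Rab7b.

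The called genes were also read in adult rats, whose libraries differ from the peripubertal ones although the dispersion fit is shared. Among the 126 genes with a higher effect in peripubertal rats than in mice, 108 were higher with MEHP in adult rats (85.7%, against 38.9% of all paired genes), and 19 were called there in the authors' deposited table. Among the 72 lower ones, 46 were lower in adult rats (63.9%, against 61.1%), and 0 were called. Of all paired genes called higher within peripubertal rats, 76.6% had an adult effect of the same sign, and of those called lower 66.3%. Agreement with adult rats is thus shared by rat-called genes at large. The share of all paired genes called in adult rats was not computed, so these counts of calls have no background beside them. Per the authors' deposited table, adult effects were 4.63 ± 0.54 in Wnt4 and 3.18 ± 0.48 in Nes, while Stap2 (-0.06 ± 0.16), Tspo (-0.05 ± 0.13) and Tuba1c (-0.21 ± 0.18) were lower than in peripubertal rats, a difference between ages not tested here. For Tnp2 the adult effect in the authors' deposited table was -0.17 ± 1.15.

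**Figure D5:**
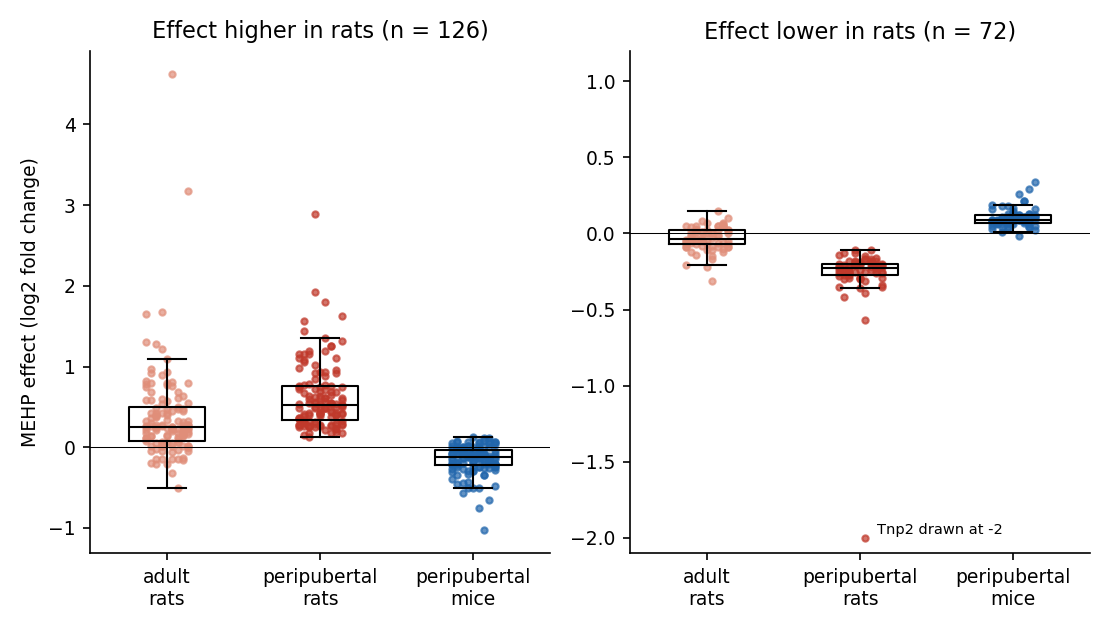
MEHP effect (log2 fold change, y axis) in adult rats, peripubertal rats and peripubertal mice of the 126 genes with a higher effect in peripubertal rats than in mice (left) and the 72 with a lower one (right), with points for genes, boxes for quartiles and whiskers to 1.5 interquartile ranges. The left medians are 0.52 in peripubertal rats and -0.12 in mice, the right ones -0.23 and 0.09, and Tnp2 is drawn at -2.

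The authors' gene ontology (GO) rank tests give another view of both species, with a limit on the rat side. Their peripubertal rat ranking equals the sum of the treatment and interaction statistics in all 9019 matched genes, which is not the Wald statistic of the peripubertal effect and is no independent check of it. By the authors' deposited values, 934 of 3806 biological process terms were past 0.05 in rats and 62 of 3664 in mice, and 23 of the 3428 terms in both tables were past it in each. For cellular component the numbers were 134 of 646, 33 of 651 and 16 of 579, and for molecular function 85 of 965, 13 of 978 and 2 of 894. Among the 3428 shared terms 868 were past it in rats and 57 in mice, among the 579 120 and 30, and among the 894 83 and 8. The overlap counts take no account of direction. Paired centriole genes had a median effect of -0.03 in rats and 0.03 in mice, and those of the mitochondrion -0.02 in both.

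Top terms of these tables were read for called differences, as a description beside the 1.22% higher and 0.696% lower of all paired genes. Extracellular space, collagen binding, anchoring junction and cilium were top terms of the rat ranking. That ranking came from the same libraries, so picking its top terms favours called differences in its direction. Their counts are therefore no separate support. Of 413 paired genes of the extracellular space, 37 had a higher effect in rats and 5 a lower one, with a median difference of 0.21 (the authors' deposited adjusted p was 1.21e-23 in rats and 0.0256 in mice). Of 45 paired collagen binding genes, 8 were higher and 0 lower, with a median of 0.33, and of 381 anchoring junction genes 18 were higher and 1 lower. Of 298 cilium genes, 0 were higher and 5 lower, with a median of -0.06. Among 150 ribosomal subunit genes 0 differences were called, and the 1310 genes of the mitochondrion, the top mouse component, had 19 higher and 7 lower, both close to the shares over all paired genes.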

How the data were processed

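Per the submitters' processing notes, reads were handled with FastQC, Bowtie2, DESeq2 and DESeq on the builds Rnor_6.0 and mm10. The sources used here give no versions, counting step or strandedness. The base mean deposited by the authors is a signal, the normalized count averaged over all libraries of a species. The effects deposited by the authors are log2 fold changes with SEs, not shrunken. Fold change over SE equals the authors' deposited Wald statistic, a score, within 1e-06 in 21351 rat and 38090 mouse genes. The p-value and adjusted p-value deposited by the authors come from DESeq2. The GO tables deposited by the authors hold other values, term sizes, and adjusted p-values.

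The peripubertal rat effect was the authors' treatment term plus the interaction term. Its variance was the interaction variance minus the treatment variance, positive in all 21351 genes. Differences were tested with a two-sided Wald test in Python 3.11.15 (SciPy 1.17.1, statsmodels 0.14.6), with BH over 10346 paired genes. The test was run on simulated counts whose dispersion was taken as known. That run does not cover error in the SEs or the choice of distribution. Names occurring in more than 1 row were left out (80 rat and 6 mouse rows). Implied group levels were computed from base means and model terms and are not measured means. Mouse coordinates are from GENCODE M21 on mm10.

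The members, the 27 gene lists and the rules were chosen with earlier results of these data known. Named genes were the 14 largest positive and 10 largest negative called differences, the 6 largest statistics of each direction, up to 4 called members of each list (or 2 with the smallest p), and 8 genes of the same and 8 of opposite sign in both species. Rat genes that an earlier account of these data names were added where paired. Other list members and called genes were named after their values were seen, and some genes that the rule names are not reported here. Alternatives changed the distribution, base mean limit, adjustment, centring, SEs, name matching and null hypothesis.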

Additional observations from a re-analysis of the deposited data

Results flagged for a closer look

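The MEHP effect differed between peripubertal rats and mice, by the test of the difference itself, in 126 genes with a higher and in 72 genes with a lower effect in rats. A signal also lay outside the pairing. Over all 21351 tested rat genes 813 were called in peripubertal rats, and 172 of them had no paired mouse gene. Of the 172, 129 were higher and 43 lower. A mouse row of that name was absent for 92, the mouse base mean was under 10 for 54, and the rat base mean was under 10 for 23. Some mouse rows carry no name, so an absent name need not mean an absent gene. With blank mouse names filled, 10634 genes were paired, and 132 were called higher and 72 lower. Hpx, a heme-binding plasma protein gene, was the largest by fold in rats (4.98 ± 0.62, adjusted p 3.83e-12), with an implied corn-oil level of 4.95, and its mouse base mean was 0.654. The neuropeptide genes Calca (4.46 ± 0.78), Vgf (3.91 ± 0.72) and Pdyn (2.31 ± 0.26), Cdh17 (3.03 ± 0.38), the Sertoli junction gene Testin (3.13 ± 0.36) and Timp1 (1.75 ± 0.31) were also outside. Hpx, Calca, Vgf, Testin and Cdh17 had larger rat effects than Serpinb1a, the highest among paired genes. In the authors' deposited table the mouse base means were 7.77 for Calca, 0.994 for Vgf and 6.85 for Cdh17, and Testin, Pdyn and Timp1 were not analysed here in mice.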

How the results depend on the processing

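No paired analysis was possible because the deposited tables hold comparisons and no values per library, and for the same reason no replicate was left out; the planned replicate alternative was not run. The species difference called 126 genes higher and 72 lower. With a t distribution the numbers were 18 and 3, with Holm adjustment 17 and 2, with the larger of the derived and the adult rat SE 44 and 18, with the mouse SE enlarged by 25 percent 47 and 13, and with a null of 0.5 in size 3 and 1. Lowering the base mean limit to 1 or removing it, the lower count was 47 and 38. Rat calls, 487 higher and 347 lower, became 200 and 78 with the t distribution, 74 and 13 with Holm and 119 and 48 with the larger SE. Mouse calls went from 0 to 1 under those 2 limits. That gene is Serpina3n, named after its value was seen. The share of rat-called genes with the same sign in mice stayed between 39.1% and 44.3% in the alternatives run. Filters under 10 ended the calls of Cdh2, Cntnap2, Plat, Sdf2l1 and Spire2, and with no limit also of Aldh1a1, Dhh, Itgb1 and Nphp4. The larger rat SE ended 24 of the 51 named calls, among them Wnt4, Nes, Gbp4, Cldn11, Dhh, Muc1 and Smoc2, and the larger mouse SE 22. No named gene that was called changed sign in any alternative run. Only centring alters the estimates of a gene, and by very little, so this outcome was fixed in advance and is no support. Centring moved no named call, and the species medians it removes were 0.002 in rats and -0.005 in mice. Tuba1c and Anxa2 kept their calls with the t distribution, and the junction genes did not.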
